A study of Mus musculus and Homo sapiens with 32 samples.

Results

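6 genes of ATP-dependent chromatin remodelling complexes, Arid1a, Arid1b, Arid2, Smarca4, Smarcc1 and Chd4, were followed through m6A-CT data of mouse cells. They were taken by gene symbol from the genotype files, where they are 6 of 11197 named genes and hold 72 of 33473 compared regions, and by overlap of at least 1 bp with their listed exon blocks from 5 peak lists. All 6 were found. Arid1a, Arid1b, Arid2, Smarca4 and Smarcc1 encode SWI/SNF subunits and Chd4 encodes a CHD protein. Smarca4 is the member whose protein carries a bromodomain, and further bromodomain genes are described as a wider list.

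SWI/SNF complexes use the energy of ATP to slide or evict nucleosomes and so open chromatin. The alternative ARID subunits sort them into BAF, with ARID1A or ARID1B, and PBAF, with ARID2, around a catalytic ATPase such as SMARCA4 (BRG1) and a scaffold that includes SMARCC1. CHD4 is the ATPase of the NuRD complex, which joins remodelling to histone deacetylation, and both complexes act in the self-renewal and differentiation of embryonic stem cells. N6-methyladenosine (m6A) is a methyl mark placed on RNA by a writer complex whose catalytic subunit is METTL3, and in messenger RNA it is concentrated in long exons and around stop codons.

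In m6A-CT, an anti-m6A antibody directs a transposase to RNA paired with cDNA inside nuclei, and an input library is tagmented without antibody. The genotype comparison used C57BL/6 mouse embryonic stem cells labelled Mettl3-/- (KO) and C57BL/6 wild-type cells, each with 2 m6A-CT and 2 input libraries and the MilliporeSigma antibody. The peak lists came from 5K, 25K or 100K nuclei of E14 mouse embryonic stem cells, from 100K nuclei of expanded potential stem cells (EPSC, whose labelled line is E14) and from 100K nuclei of mouse embryonic fibroblasts (MEF, labelled CF1), each with 2 m6A-CT and 2 input libraries and the Synaptic Systems antibody. Cells, antibody and peak caller therefore differed between the genotype set and the peak lists. Whether the KO line is 1 clone, which part of Mettl3 was deleted and whether the libraries of a group were separate cultures is not given in the sources used here.

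The genotype table pooled its libraries into 37532658 reads for KO m6A-CT, 51031598 for KO input, 39310394 for wild-type m6A-CT and 45090626 for wild-type input. Lars2 and Rn45s, a pair of very read-rich genes, left 45.5% of the KO m6A-CT reads, 19.0% of KO input, 63.5% of wild-type m6A-CT and 23.6% of wild-type input to all else. The 1 listed region of Mettl3 had 2.47 RPM (library reads scaled to a common total) in KO input and 1.71 RPM in wild-type input, which checks the label only if it lies in the deleted part. Of the naive pluripotency markers, 9 of 10 had a position, and 8, 7, 8, 6 and 3 of them held a peak in E14 5K, E14 25K, E14 100K, EPSC and MEF. Of the fibroblast markers, 5 of 10 had a position, and 4 held a peak in MEF and 0 in every stem cell list. Since no file holds values per library, no error between replicates can be given below, and each 95% interval covers counting error alone.

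Nearly all regions of the 3 ARID genes were called lower in Mettl3 KO and all regions of Smarcc1 higher, while Smarca4 and Chd4 had regions called both ways. In the authors' deposited table, m6A-CT over input was called lower in Mettl3 KO at an FDR of 0.05 in 55 of the 72 regions and higher in 17. Among all regions compared, 88.8% were called lower and 11.0% higher. The ARID genes had 44 regions lower and 2 higher, against 11 lower and 15 higher for Smarca4, Smarcc1 and Chd4. By gene, the numbers lower and higher were 20 and 1 for Arid1a, 15 and 0 for Arid1b, 9 and 1 for Arid2, 7 and 3 for Smarca4, 0 and 8 for Smarcc1, and 4 and 4 for Chd4. Of the 943 genes with at least 8 regions, 19 (2.01%), Smarcc1 among them, had every region higher, and 815 (86.4%) had every region lower. That minimum equals the region number of Smarcc1 and was not in the plan. A stricter FDR of 0.01 left 50 of the members' regions lower and 7 higher, against 62.9% and 4.62% of all regions. A test on the counted reads alone called 33 lower and 17 higher, against 55.8% and 11.0%. The table lists few regions that missed the FDR (82 of 33473), so stretches of these genes outside it were not compared here.

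The authors' fold changes carry an offset: over all regions their median difference from the change on the RPM scale was -0.50 (log2), and over the members' regions -0.52. On the RPM scale the ratio was lower in KO in 53 of the 72 regions (73.6%), against 87.5% of all regions. The median change on that scale was -0.59 for the ARID regions and 0.80 for the regions of Smarca4, Smarcc1 and Chd4, against -0.83 for all regions. This grouping was not in the plan, and the last 3 genes differed: their medians were -0.12 for Smarca4, 0.9 for Smarcc1 and 0.44 for Chd4. The direction differed between the scales in 1 region of Smarca4 and 1 region of Chd4, so both scales are given for those genes.

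**Figure D1:**
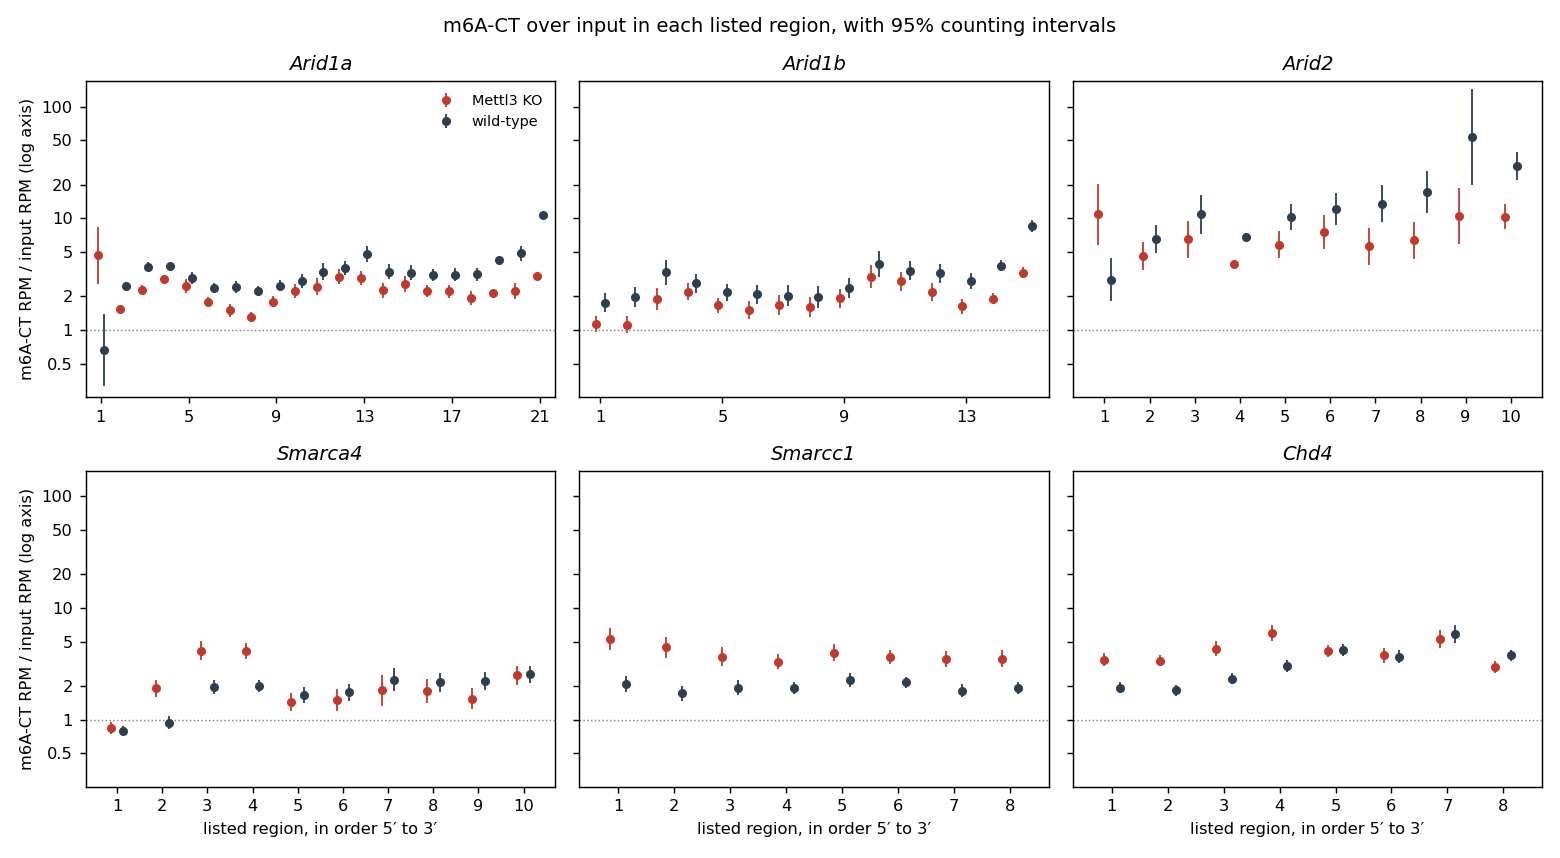
Ratio of m6A-CT RPM to input RPM (log axis) in every listed region of the 6 genes, numbered 5′ to 3′, in Mettl3 KO (red, left of each pair) and wild-type (dark blue), with 95% counting intervals as bars. KO lies below wild-type along Arid1a, Arid1b and Arid2 except in the first region of Arid1a and of Arid2. It lies above wild-type in all 8 regions of Smarcc1, in regions 2 to 4 of Smarca4 and in regions 1 to 4 of Chd4. In region 1 of Smarca4 and region 6 of Chd4 it is slightly above, with intervals of the change that include 0.

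Arid1a, which encodes the main ARID subunit of the BAF complex of embryonic stem cells, was called lower in Mettl3 KO along nearly its whole listed length. Its 21 regions lie on chromosome 4, minus strand (mm9), and its 3′-most region, chr4:133234923-133237947, spans 3025 bp and held the most reads. There m6A-CT was 133 RPM in KO and 447 RPM in wild-type cells, while input was 44.1 RPM in KO and 42 RPM in wild-type. The m6A-CT over input ratio was thus 3.03 in KO and 10.63 in wild-type, a log2 change of -1.81 (95% counting interval -1.91 to -1.71), and the authors' deposited table gives -2.34 with an FDR listed at 0. In this region m6A-CT was low in KO while input differed little.

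A region of 850 bp farther 5′, chr4:133240810-133241659, had ratios of 2.13 in KO and 4.26 in wild-type, and the 1125 bp region chr4:133308387-133309511 near the 5′ end had 1.55 in KO and 2.49 in wild-type. Across the 21 regions the ratio ran between 1.30 and 4.66 in KO, with a median of 2.25, and between 0.66 and 10.63 in wild-type, with a median of 3.17. The exception was the 5′-most region, chr4:133312320-133312684, with 48 m6A-CT and 14 input reads in KO against 11 and 19 reads in wild-type. Its ratio was 4.66 in KO and 0.66 in wild-type, and the authors' deposited table calls it higher (2.34, FDR 0.00645). It rests on 92 reads, the fewest of the members' regions.

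Arid1b, the alternative subunit in the same place of the BAF complex, was called lower in all 15 of its regions (chromosome 17, plus strand). The 3′-most region, chr17:5341382-5347656, spans 6275 bp. Its m6A-CT was 29 RPM in KO and 59 RPM in wild-type, and its input 8.86 RPM in KO and 6.88 RPM in wild-type. The ratio was 3.27 in KO and 8.58 in wild-type (log2 change -1.39, counting interval -1.62 to -1.16), and -1.92 in the authors' deposited table with FDR 6.33e-56. Neighbouring region chr17:5336534-5339340, of 2807 bp, had ratios of 1.91 in KO and 3.77 in wild-type. In the other 13 regions the change was smaller, and for 6 of the 15 the counting interval includes 0. The smallest change of the gene was -0.26 (chr17:5242844-5243068, -0.64 to 0.13). The log2 difference of Arid1b input, KO over wild-type, was between 0.03 and 0.64 in its regions, and the counting interval of several of them includes 0.

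Arid2, which defines PBAF, had the highest ratios of the 6 genes. Its regions number 10 and lie on chromosome 15, plus strand. The most-read region, chr15:96200366-96203190 (2825 bp), had 46.6 RPM of m6A-CT in KO and 96.5 RPM in wild-type over 12 RPM of input in KO and 14.1 RPM in wild-type, that is, ratios of 3.89 in KO and 6.84 in wild-type. The authors' deposited table gives -1.33 for it (FDR 4.18e-45). The 3′-most region, chr15:96232391-96235890 (3500 bp), had ratios of 10.38 in KO and 29.64 in wild-type, over only 63 input reads in KO and 49 in wild-type.

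At chr15:96223028-96223077, the region with the highest wild-type ratio of Arid2, the ratio was 10.56 in KO and 53.62 in wild-type. It stands on 13 input reads in KO and 4 in wild-type, and its log2 change of -2.34 has a counting interval of -4.0 to -0.69. As in Arid1a, the 5′-most region went the other way. At chr15:96119502-96119576 m6A-CT counted 88 reads in KO and 69 in wild-type over 11 input reads in KO and 28 in wild-type, a ratio of 10.88 in KO and 2.83 in wild-type, and the authors' deposited table gives 1.5 (FDR 0.0389).

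Smarca4, the catalytic ATPase known as BRG1, changed in opposite directions along its 10 regions (chromosome 9, plus strand). Regions 2 to 4, chr9:21443682-21443831, chr9:21473385-21473484 and chr9:21474010-21474084, had ratios of 1.90, 4.16 and 4.10 in KO, against 0.94, 1.96 and 1.99 in wild-type. The authors' deposited table calls them higher, by 0.49, 0.57 and 0.55 (FDR 0.0219, 0.00943 and 0.00334). On the RPM scale m6A-CT differed less between the genotypes than input did in each of them: the middle one had 10.8 RPM of m6A-CT in KO and 13.1 RPM in wild-type over 2.59 RPM of input in KO and 6.70 RPM in wild-type.

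The other 7 Smarca4 regions were called lower in the authors' deposited table, with values between -1.02 and -0.45, but on the RPM scale 1 of them was slightly higher and only chr9:21505545-21505669 had a counting interval below 0 (-0.51, -0.92 to -0.10). The most-read region, chr9:21437267-21437491, had ratios of 0.84 in KO and 0.79 in wild-type, with less m6A-CT than input in both genotypes. At the 3′ end, chr9:21507400-21508674, the ratios were 2.49 in KO and 2.54 in wild-type. That difference was within counting error on the RPM scale, where its log2 interval was -0.41 to 0.34.

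Smarcc1, a scaffold subunit around which SWI/SNF assembles, was called higher in all 8 of its regions (chromosome 9, plus strand). The Smarcc1 ratio ran between 3.30 and 5.29 in KO and between 1.72 and 2.25 in wild-type. These regions come from the same pooled libraries and are not replicates of a genotype. The most-read region, chr9:110089276-110089400, had 17.8 RPM of m6A-CT in KO and 19.6 RPM in wild-type, over 4.90 RPM of input in KO and 9.09 RPM in wild-type. Its ratio was 3.63 in KO and 2.15 in wild-type (log2 change 0.75, counting interval 0.48 to 1.03), and the authors' deposited table gives 0.38 (FDR 0.0329). Over the 8 regions m6A-CT differed by -0.29 to -0.05 and input by -1.44 to -0.89 (log2, KO over wild-type). The listed regions end at position 110098892, and the last Smarcc1 exon blocks, which hold peaks in other lists described below, are outside them.

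Chd4, the NuRD ATPase, split along its length. Its first 4 regions on chromosome 6 (plus strand), between positions 125051476 and 125060150, had ratios of 3.44, 3.38, 4.32 and 5.94 in KO, against 1.93, 1.83, 2.33 and 3.03 in wild-type. They were called higher in the authors' deposited table, by 0.34 to 0.45. The last 4 were called lower there, with values between -0.87 and -0.45, and had ratios of 4.10, 3.76, 5.25 and 2.97 in KO, against 4.2, 3.67, 5.81 and 3.76 in wild-type. On the RPM scale the counting interval of the last region alone, chr6:125078831-125080609, lay below 0 among these 4 (-0.34, -0.58 to -0.10). Chd4 regions 1 to 4 had input lower by 0.61 to 1.07 in KO (log2), regions 5 to 8 by 0.15 to 0.46.

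Summing the reads of each gene's listed regions separates the m6A-CT and input parts of these ratios. For Arid1a the summed m6A-CT was 506 RPM in KO and 1031 RPM in wild-type over 223 RPM of input in KO and 225 RPM in wild-type. Arid1b had 137 RPM of m6A-CT in KO and 188 RPM in wild-type over 69.9 RPM of input in KO and 54.7 RPM in wild-type. Arid2 had 94 RPM in KO and 190 RPM in wild-type over 18.7 RPM of input in KO and 20.9 RPM in wild-type. On the RPM scale m6A-CT was lower in KO in these 3 genes, and Arid1b input was higher.

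For Smarca4 m6A-CT summed to 72 RPM in KO and 103 RPM in wild-type, and input to 38.9 RPM in KO and 68.2 RPM in wild-type. Smarcc1 had 97.9 RPM of m6A-CT in KO and 110 RPM in wild-type over 26 RPM of input in KO and 55.5 RPM in wild-type. Chd4 had 161 RPM in KO and 186 RPM in wild-type over 41.5 RPM of input in KO and 62.3 RPM in wild-type. On the RPM scale both sums were lower in KO in all 3 genes, but the direction of m6A-CT turned for Smarcc1 and Chd4 when the reads of Lars2 and Rn45s were taken out of the totals.

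On the log2 scale input differed by -0.01 for Arid1a (counting interval -0.05 to 0.03), 0.35 for Arid1b (0.28 to 0.43), -0.16 for Arid2 (-0.29 to -0.04), -0.81 for Smarca4 (-0.89 to -0.73), -1.09 for Smarcc1 (-1.19 to -1.0) and -0.59 for Chd4 (-0.67 to -0.50). Across 8645 genes with summed reads the median input difference was -0.03, and 7.11% of genes had a lower value than Smarcc1, 12.8% than Smarca4 and 19.8% than Chd4. The m6A-CT difference was -1.03 for Arid1a, -0.45 for Arid1b, -1.01 for Arid2, -0.52 for Smarca4, -0.16 for Smarcc1 and -0.20 for Chd4, against a median of -0.71. The summed ratio changed by -1.02, -0.81 and -0.85 for Arid1a, Arid1b and Arid2, near the median of -0.82, and by 0.29, 0.93 and 0.38 for Smarca4, Smarcc1 and Chd4, where 88.4%, 91.5% and 89.0% of genes had a lower value. With Lars2 and Rn45s left out of the totals, the input difference was 0.15 for Arid2 and 0.30 for Arid1a, and it stayed below 0 for Smarca4, Smarcc1 and Chd4. On those totals, an alternative chosen after the data were seen, the m6A-CT difference was -0.54 for Arid1a, 0.03 for Arid1b (counting interval -0.02 to 0.08), -0.53 for Arid2, -0.04 for Smarca4 (-0.11 to 0.03), 0.32 for Smarcc1 and 0.28 for Chd4, against a median of -0.23 over all genes. The direction of m6A-CT in Arid1b, Smarcc1 and Chd4 thus depends on the totals. Fewer transcripts per cell and fewer cells with the transcript cannot be told apart in these bulk libraries.

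**Figure D2:**
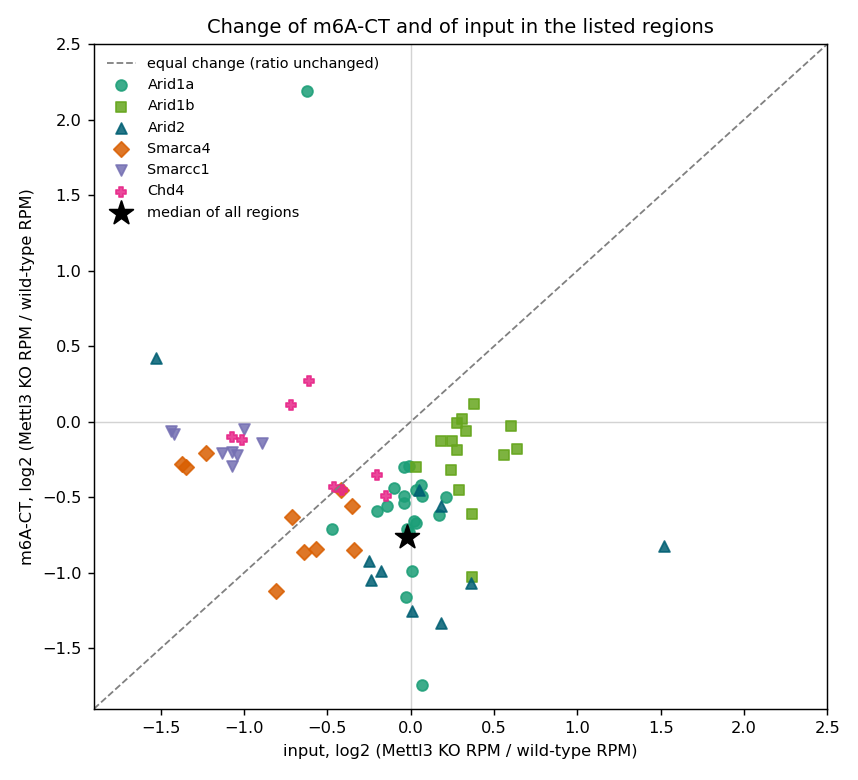
Change of input (x axis) and of m6A-CT (y axis) between Mettl3 KO and wild-type, as log2 of the RPM ratio, for the 72 regions of the 6 genes, with the median of all regions as a star and the line of equal change dashed. Regions of Arid1a, Arid1b and Arid2 lie below the dashed line apart from 2 of the 46, while the Smarcc1 regions lie above it at inputs lowered by 0.89 to 1.44.

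Per kb of listed region, wild-type input was 34.2 RPM for Smarcc1, 27.9 for Arid1a, 26.5 for Smarca4, 22.4 for Chd4, 4.43 for Arid1b and 2.93 for Arid2. KO input per kb was 16 RPM for Smarcc1, 27.7 for Arid1a, 15.1 for Smarca4, 14.9 for Chd4, 5.66 for Arid1b and 2.61 for Arid2. Arid1a thus had the highest level of the 6 in KO, and Smarcc1 in wild-type. These levels come from the listed regions alone and so cover different parts of each transcript.

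MeTPeak, run by the authors on each genotype, called all 6 genes in both. The fold enrichment of a peak is the authors' own value. The highest fold was 9.19 in KO and 39.5 in wild-type for Arid1a, 5.50 in KO and 20.3 in wild-type for Arid1b, and 10.3 in KO and 29 in wild-type for Arid2. For Smarca4 it was 7.92 in KO and 4.2 in wild-type, for Smarcc1 9.33 in KO and 6.71 in wild-type, and for Chd4 12.6 in KO and 11.6 in wild-type. For Smarca4 the median fold over its peaks ran the other way, with 3.48 in KO and 4.19 in wild-type. The highest fold was thus lower in KO for the 3 ARID genes and higher for the other 3, while among 3953 genes with a peak in both genotypes it was lower in KO in 76.7%.

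**Figure D3:**
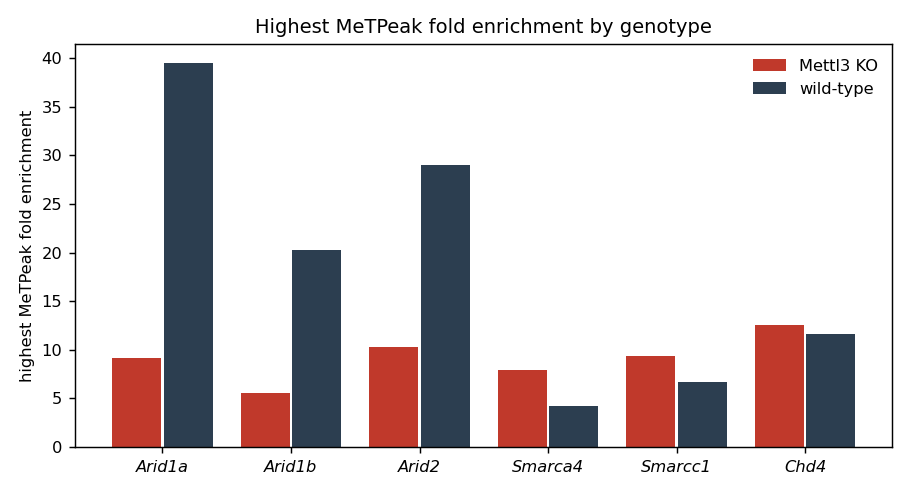
Highest MeTPeak fold enrichment (y axis) of each of the 6 genes in Mettl3 KO (red, left bar) and wild-type (dark blue). The wild-type bar is the taller one for Arid1a, Arid1b and Arid2, at 39.5, 20.3 and 29, and the KO bar for Smarca4, Smarcc1 and Chd4; each bar is 1 peak from pooled libraries and has no error.

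The extent of MeTPeak peaks differed less than their fold. Arid1a had 1 peak over 20 exon blocks and 7420 exonic bp in each genotype, and Chd4 1 peak over 38 blocks, with 5747 bp in KO and 5897 bp in wild-type. Arid1b was called as 5 separate peaks in KO and as 1 peak over 20 blocks in wild-type, with 5344 exonic bp in KO and 6337 bp in wild-type. Smarcc1 had 1 peak over 26 blocks in KO and 3 peaks in wild-type. The highest Smarca4 fold in KO belonged to a peak over 22 blocks, whose wild-type counterpart with the same end, 21482447, had a fold of 4.18.

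Across cell types and nuclei numbers the MACS2 lists held 20 peaks of the 6 genes in E14 5K, 7 in E14 25K, 26 in E14 100K, 51 in EPSC and 113 in MEF. The lists themselves hold 4644, 3923, 8052, 12183 and 38205 peaks in that order, their depth is unknown, and no test between them could be made. A peak was found in 5 of the 6 genes in E14 5K (14.9% of all named genes), in 2 in E14 25K (9.93%), and in all 6 in E14 100K (18.9%), EPSC (27.2%) and MEF (39.7%).

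Arid1a and Chd4 had a peak at every number of E14 nuclei. For Arid1a there were 7 peaks in E14 5K, 6 in E14 25K and 5 in E14 100K, and 12 in EPSC and 16 in MEF. Its peaks covered 44.7%, 22.8%, 49.8%, 74.7% and 91.9% of its listed exonic bases in these lists. Chd4 had 4, 1, 7, 20 and 19 peaks in the same order, and covered 79.9% of its exonic bases in EPSC and 81.1% in MEF, against 25.7% in E14 100K. Both genes were thus covered over most of their exons in EPSC, and less in E14 100K.

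Arid1b, Arid2, Smarca4 and Smarcc1 had no peak in E14 25K. Arid1b had 1 peak in E14 5K, 4 in E14 100K, 2 in EPSC and 21 in MEF, and Arid2 had 0, 5, 6 and 15 in these lists. Smarca4 had 4 peaks in E14 5K, 1 in E14 100K, 2 in EPSC and 25 in MEF. Smarcc1 had 4 in E14 5K, 4 in E14 100K, 9 in EPSC and 17 in MEF. For Smarca4 the covered share of exonic bases was 70.2% in MEF and 6.94% in EPSC, against 3.32% in E14 100K, and no other member had as wide a gap between MEF and E14 100K.

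The highest fold of a peak did not follow the number of peaks. Smarcc1 had the highest fold of the 6 genes in EPSC, at 17.5, and in E14 100K, at 10.4, against 7.32 in MEF. Arid2 reached 12.2 in MEF, 10.4 in EPSC and 8.05 in E14 100K, and Arid1a 10.7 in MEF, 3.53 in EPSC and 4.51 in E14 100K. Smarca4 had the lowest value of the 6 genes in MEF, at 6.16, and in E14 100K, at 3.38.

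**Figure D4:**
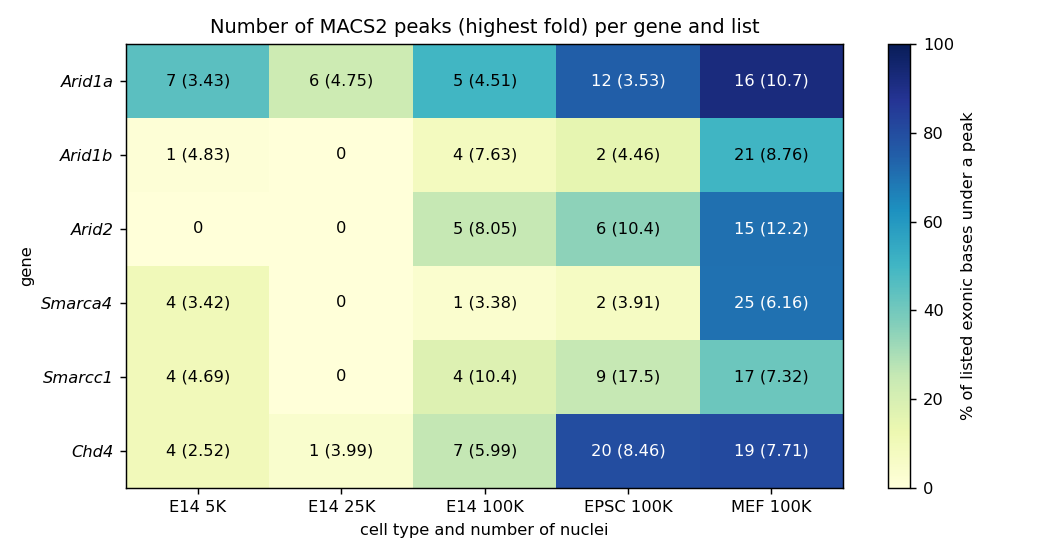
Number of MACS2 peaks of each gene (rows) in each list (columns), with the highest fold in parentheses, and shading for the share of the gene's listed exonic bases under a peak. Arid1a and Chd4 reach 74.7% and 79.9% in EPSC, the MEF column runs between 41.2% for Smarcc1 and 91.9% for Arid1a, and 4 genes have no peak in E14 25K.

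With each longer list limited to as many peaks as E14 100K holds, by -log10 q, EPSC held 43 peaks of the 6 genes and MEF 50, against 26 in E14 100K. Limited in this way, MEF held 17 peaks of Arid1b, 12 of Arid1a and 12 of Chd4, but 5 of Smarca4, 4 of Arid2 and 0 of Smarcc1, and EPSC held 19 of Chd4, 12 of Arid1a and 7 of Smarcc1. E14 100K held 7 of Chd4, 5 of Arid1a and 4 of Smarcc1. The limit kept 8052 of the 38205 MEF peaks, among them most of those of Arid1b and none of Smarcc1. At -log10 q of at least 20, which 23961 MEF peaks reached, MEF held 21 peaks of Arid1b and 23 of Smarca4. At that threshold it held 14 of Arid2 and 10 of Smarcc1.

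Merged across lists, the peaks formed 115 regions, of which 63 (54.8%) were in MEF alone and 22 (19.1%) in MEF, EPSC and E14 100K together. Peaks of all named genes, merged in the same way, formed 32190 regions, with 64.2% in MEF alone, 8.57% in those 3 lists together and 1.46% in all 5. The members' 3 in all 5 lists (2.61%) were all in Arid1a. These are chr4:133235247-133237973 at its 3′ end, with folds of 3.43, 4.75, 3.90, 3.53 and 9.63 in E14 5K, E14 25K, E14 100K, EPSC and MEF, chr4:133278670-133279023, and chr4:133308341-133309530. The first overlaps the most-read region of the genotype table, where the ratio was 3.03 in KO and 10.63 in wild-type cells.

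Of the 115 merged regions, 2 (1.74%) lacked a MEF peak, against 11.8% for all named genes. One lies in Chd4 (chr6:125050736-125050962) and the other, chr9:110141993-110142375, in the last part of Smarcc1, past the regions of the genotype table. At the Smarcc1 3′ end, chr9:110140935-110141674 held a peak in every list but E14 25K, with folds of 4.69 in E14 5K, 4.11 in E14 100K, 2.40 in EPSC and 2.7 in MEF.

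Other genes of the same families were mostly called lower in KO, as were the regions of the whole table. Of the wider lists, SWI/SNF had the largest share called higher. Without the members, 4 lists of SWI/SNF, CHD and NuRD, other remodeller and bromodomain genes hold 83 genes, of which 73 had a position and 68 a compared region. Taking for each gene the region with the most reads, the authors' deposited table calls 55 lower in KO and 13 higher. Among all genes whose most-read region had at least 50 reads, 89.7% were lower and 10.3% higher. No read minimum was set for the 68 genes, of which Bcl11a and Brdt, both called lower, had 48 and 17 reads. The median change on the RPM scale was -0.57 over the 68 genes and -0.76 over all genes.

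Of the 15 SWI/SNF genes with a region, 10 were lower and 5 higher. Of all 50 regions of these genes 68.0% were lower and 32.0% higher, against 88.8% and 11.0% of all regions compared. Lower were Bicra, a subunit of the non-canonical BAF complex, with ratios of 1.21 in KO and 2.34 in wild-type, Brd9, a bromodomain subunit of that complex, with 1.73 in KO and 2.96 in wild-type, and Ss18l1, Bcl7a and Bcl7c. Pbrm1, which defines PBAF together with Arid2, had 1.90 in KO and 2.56 in wild-type over 201 reads in all. Its log2 change was -0.44 with a counting standard error of 0.43, and the authors' deposited table calls it lower (-1.1, FDR 0.0466). The MeTPeak fold of Pbrm1 was 21.7 in KO and 21.5 in wild-type. Pbrm1 had the highest MACS2 fold of the list, 25.8 in MEF. The 5 genes called higher, named after their values were seen, were Dpf1, Smarcd1, Actl6a, Phf10 and Brd7. Actl6a, an actin-related subunit, had ratios of 2.40 in KO and 0.91 in wild-type, over input of 2.59 RPM in KO and 5.34 RPM in wild-type, and Brd7, a PBAF subunit, had 4.12 in KO and 1.48 in wild-type. Dpf1 rests on 60 reads.

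In the CHD and NuRD list 12 of the 16 genes with a region were lower. They include all 7 CHD genes with one, among them Chd3, Chd5, Chd6 and Chd8. Chd6 had ratios of 4.13 in KO and 13.19 in wild-type and Chd8 2.04 in KO and 4.95 in wild-type, and the authors' deposited table gives -2.20 and -1.81 for them. Hdac1, the NuRD deacetylase, was lower too, over 81 reads. The 4 higher genes, named after their values were seen, were Mta1, Mta2, Mta3 and Rbbp4, all subunits of NuRD, with ratios of 1.70, 2.87, 1.44 and 1.44 in KO, against 0.75, 1.35, 0.46 and 0.69 in wild-type. Mta1, Mta3 and Rbbp4 had less m6A-CT than input in wild-type, which Chd4 had in none of its regions. Their input was lower in KO, at 2.98, 2.59 and 9.01 RPM, against 4.13, 5.79 and 18.2 RPM in wild-type. The MeTPeak fold went the other way for Mta1, with 3.38 in KO and 4.5 in wild-type, and for Rbbp4, with 6 in KO and 15.7 in wild-type. Mta2 and Mta3 had a MeTPeak fold in KO alone, of 4.22 and 4.5.

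Of the other remodellers 7 of 9 were lower. Srcap, an ATPase that places a histone variant, had 2.44 in KO and 6.05 in wild-type over 15217 reads, and Ep400 1.97 in KO and 2.90 in wild-type. Hells, a remodeller linked to DNA methylation, and Smarca5, the ISWI ATPase, were higher, with ratios of 8.29 and 5.95 in KO, against 3.29 and 3.03 in wild-type. Of the bromodomain genes 26 of 28 were lower. The acetyltransferase genes Crebbp and Ep300 had 2.40 and 2.93 in KO, against 6.34 and 7.06 in wild-type, and Brwd1 had 4.15 in KO and 12.1 in wild-type. The 2 higher genes, named after their values were seen, were Kat2b, with 2.10 in KO and 0.87 in wild-type, and Trim28, with 1.09 in KO and 0.61 in wild-type.

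**Figure D5:**
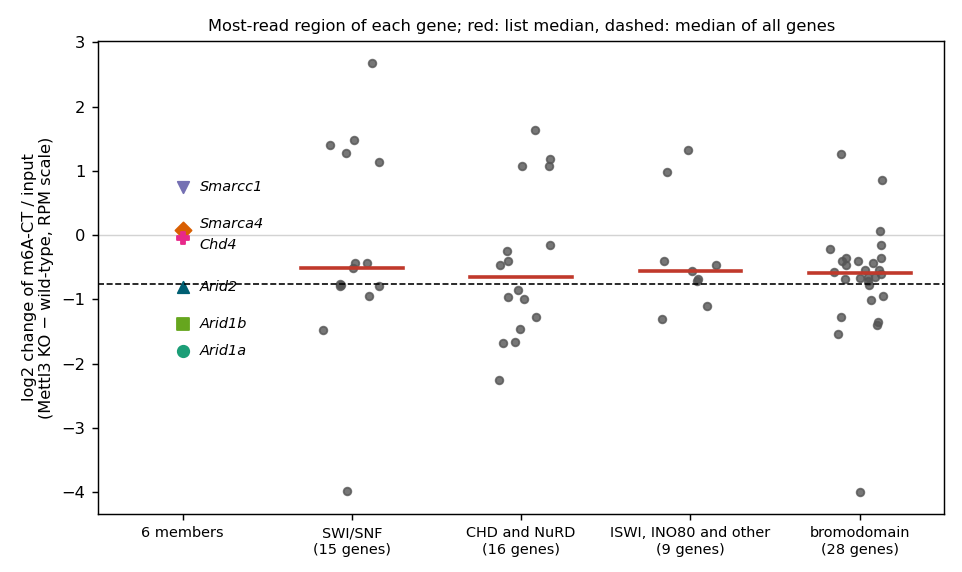
Log2 change of m6A-CT over input between Mettl3 KO and wild-type on the RPM scale (y axis), in the most-read region of each gene, for the 6 genes and for the 4 wider lists, with list medians in red and the median of all genes, -0.76, dashed. Arid1a, Arid1b and Arid2 lie below all 4 list medians and Smarca4, Smarcc1 and Chd4 above them; the points near -4 are Bcl11a and Brdt, where 1 column had no reads and 0.5 reads were added, so that they give no fold.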

How the data were processed

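Bulk m6A-CT and input libraries were measured in mouse cells. Per the submitters' processing notes, Trim Galore, STAR 2.7.2, mm9 and MACS2 were used. MeTPeak and exomePeak2 are named in the sample descriptions, and their versions and settings are not given in the sources used here.

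In the genotype table the deposited RPM values fill 1 pooled column per genotype and library kind. They were whole multiples of 1 read to within 0.1 reads in 100.0% of values, which gave back reads and totals. The deposited log2 fold change (KO against wild-type) comes with a deposited p-value and FDR, and its deposited score is -log10 p. In the MeTPeak lists the authors give a fold, a p-value and the log10 of p and FDR. In the MACS2 lists the authors give a fold ratio, a score, and -log10 p and -log10 q, with -log10 q of at least 10. Exon block numbers and summit offsets are other deposited columns.

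The plan named edgeR for counts per replicate. The columns are pooled, so it was not run, and the authors' FDR was used. Regions compare those pooled libraries, not the conditions. Intervals (95%) come from the reads of the columns and cover counting error only, because the columns pool the libraries. Amplified reads that carry no molecular identifier can repeat a molecule, so the intervals may be too narrow even for counting error. A counting test on the recovered reads (Wald test, Benjamini-Hochberg over 33473 regions) called 18691 regions lower and 3666 higher. It was tried on simulated reads with counting error alone and few changed regions, which cannot show its error rate in these data. Where any of the compared columns had no reads, 0.5 reads were added to each of them. Peaks and regions were assigned through the exon blocks of the 3 genotype files, and coordinates are mm9, 1-based. No mm9 genome or annotation was used here, so no position was called coding, untranslated or intronic. RefSeq GRCm38.p6 gave gene synonyms only. Python 3.11.15, pandas 2.3.3, numpy 2.4.6, scipy 1.17.1 and matplotlib 3.10.9 were used.

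The members and lists were chosen with earlier results of these data known. Named genes are the 6 members and, from each wider list, up to 5 genes with the largest authors' change past an FDR of 0.05 with at least 50 reads and up to 3 with the highest MACS2 fold. The 5 genes most like the members, by Euclidean distance of log2(1 + highest fold) over the 5 lists from the members' median, were also named. The alternatives tried were another FDR, read minimum, scale, total, summary per gene, q threshold, overlap and list length. Not every gene that the rule picks is reported here. The human HEK293T list was not used here.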

Additional observations from a re-analysis of the deposited data

How the results depend on the processing

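Over 33 results and 78 alternatives, 45 values kept their direction and side of the threshold or moved little, 22 moved, 1 became weaker and 10 reversed. For the change per gene, the authors' deposited table gives -0.45 for the most-read region of Smarca4, against 0.08 on the RPM scale, 0.24 without Lars2 and Rn45s in the totals and 0.29 with summed reads. For Chd4 it gives -0.56, against -0.04, 0.13 and 0.38 in the same order, so the direction of both genes depends on the scale. Arid1a, Arid1b and Arid2 stayed lower and Smarcc1 higher under all 4 alternatives. The members' regions called lower numbered 33 in the counting test, against 55 by the authors' FDR, and those called higher 7 at an FDR of 0.01, against 17. Of the 452 regions of the wider lists, 36 were higher at an FDR of 0.01, against 65 at 0.05, and 293 were lower, against 387. Among all regions compared, 4.62% were higher at 0.01 and 11.0% at 0.05, and 62.9% and 88.8% lower.

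Without Lars2 and Rn45s in the totals the log2 input difference was 0.30 for Arid1a, 0.67 for Arid1b, 0.15 for Arid2 (a reversal of -0.16), -0.50 for Smarca4, -0.78 for Smarcc1 and -0.27 for Chd4. The m6A-CT difference on the same totals, added after the data were seen, was -0.54 for Arid1a, -0.53 for Arid2 and -0.04 for Smarca4, and it reversed to 0.03 for Arid1b, 0.32 for Smarcc1 and 0.28 for Chd4. In the most-read region alone, with all reads in the totals, the input difference was 0.07 for Arid1a, -0.71 for Smarca4, -0.89 for Smarcc1 and -0.41 for Chd4. With the median MeTPeak fold, the log2 of KO over wild-type was -3.07 for Arid1b, against -1.88 with the highest fold, -2.36 for Arid2, against -1.49, and -0.27 for Smarca4, a reversal of 0.92. At -log10 q of at least 20 the members' peaks numbered 5 in E14 5K, 4 in E14 25K, 7 in E14 100K and 33 in EPSC. MEF held 50 when limited to the length of the E14 100K list. The cause of these shifts was not tested, beyond fewer peaks or reads by construction. No member's MeTPeak peak had an FDR below 1e-10, so that alternative gave no value, and E14 5K and E14 25K were too short to be limited to the same length. No paired analysis was possible because the deposited columns pool the replicates. Low input limits Arid2 most, with 4 wild-type input reads in 1 region.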

Other observations

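Some genes outside these families had highest folds close to the members' median across the 5 peak lists. By Euclidean distance of log2(1 + highest fold) from the members' median, the nearest genes were Med13l at 0.244, Anapc1 at 0.367, Adar at 0.371, and Tlk2 and Il6st at 0.378 each, over 5 lists. Med13l, a subunit gene of the Mediator kinase module, had highest folds of 3.01 in E14 5K, 5.99 in E14 100K, 6.64 in EPSC and 7.65 in MEF, and like 4 of the 6 members it had no peak in E14 25K. Of the members Arid1b lay nearest to their median (0.588), and Arid1a farthest (2.68).

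In MEF 6 peaks lay between the first and last exon blocks of a member but outside the listed blocks, and in the other 4 lists none did. Arid1b held 4 of them, with folds between 5.91 and 6.67, at chr17:5144525-5144628, chr17:5166897-5166996, chr17:5189882-5190112 and chr17:5306423-5306566. Smarca4 held the other 2, chr9:21440574-21440759 with a fold of 2.41 and chr9:21482695-21482887 with 2.55. The exon blocks come from stem cells, so whether these stretches are introns or exons used in fibroblasts was not tested.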
